A study of Rattus norvegicus with 12 samples.

Results

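Smooth muscle transcription factors were followed as 10 genes, Myocd, Srf, Mrtfa, Mrtfb, Klf4, Klf5, Gata6, Mef2a, Mef2c and Elk1, chosen by symbol as the factors known to set the contractile or proliferative state of smooth muscle. All 10 were found in the table of 33294 gene symbols, and all 10 passed the filter on low counts that left 18438 genes for testing. The cells were PAC1 (PAC-1 in the labels), a rat pulmonary artery smooth muscle cell line, passaged weekly to hold a more differentiated state. By the study's account, the cells of this experiment were less differentiated than in its other RNA-seq experiment. They received a control siRNA (C2) or an siRNA against one RNA-binding protein, RBPMS, RBFOX2 or QKI, as 90 pmol in a reverse transfection repeated after 24 h, and were harvested 48 h after the repeat, as the labels state. Methods of the study place both the repeat and the harvest later, which was not resolved. Each of the 4 groups, called control, RBPMS knockdown, RBFOX2 knockdown and QKI knockdown, held 3 libraries of poly(A)-selected RNA. Line and transfection protocol were shared by all groups, and the siRNA was the only difference between groups that the labels gave. One siRNA per target was listed, so its effects on other transcripts cannot be told apart from loss of the target. The sense strands listed by the study are printed here, in lower case throughout, because they define the groups.
C2: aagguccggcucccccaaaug
RBPMS: ggcggcaaagccgagaaggcgaaca
RBFOX2: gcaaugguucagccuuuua
QKI: ggacuuacagcuaaacaac

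SRF is a DNA-binding factor that recognises the CArG box and serves both the contractile genes and the immediate-early genes of growth. Which set it serves depends on its partners: myocardin and the related MRTFs, which are held in the cytoplasm by monomeric actin, favour contractile genes, whereas ELK1 and the other ternary complex factors compete for the same surface of SRF and favour immediate-early genes. KLF4 and KLF5 are known for repressing myocardin-driven genes or for driving proliferation when smooth muscle dedifferentiates, GATA6 is linked to the quiescent vascular state, and the MEF2 factors act on muscle genes including Myocd.

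Total counts per library ran from 110595399 to 151665474. Levels are given below in CPM, that is counts scaled to a common library total after TMM adjustment, log2 fold changes are given with their standard error (SE), and a change was called at an edgeR quasi-likelihood p, adjusted by Benjamini-Hochberg over all 18438 genes, under 0.05. Of the targeted transcripts, Rbpms fell by 2.50 in RBPMS knockdown, Rbfox2 fell by 2.05 in RBFOX2 knockdown and Qk fell by 3.13 in QKI knockdown on the log2 scale, as labelled. The targets also moved in one another's groups. Rbpms had log2 fold changes of -0.81 in RBFOX2 and -0.49 in QKI knockdown (adjusted p = 2.10e-09 and 9.32e-07). Qk had log2 fold changes of -0.42 in RBFOX2 and 0.18 in RBPMS knockdown (adjusted p = 1.70e-08 and 2.97e-04), and Rbfox2 of -0.12 in RBPMS and -0.15 in QKI knockdown (adjusted p = 0.0193 and 0.00428). RBPMS knockdown replicate 2 stood apart from its group, with a chi-square per degree of freedom of 57.8 and 45.6 against replicates 1 and 3, where the other pairs of libraries within groups gave 4.64 to 21.5. Results of RBPMS knockdown that rest on it are given with and without it. The summed level of 10 smooth muscle markers was 2163 to 2232 CPM in the control libraries, and 1088 to 1199, 848 to 949 and 1435 to 1529 CPM in RBPMS, RBFOX2 and QKI knockdown. Markers of other cell types were low for endothelium (8 genes, 8.75 to 10.8 CPM in control), striated muscle (9 genes, 5.69 to 5.79 CPM) and macrophages (8 genes, 37.9 to 39.7 CPM, nearly all from Cd14 at 37.0 CPM), and at most 7.48, 60.1 and 9.20 CPM in a knockdown library for striated muscle, macrophage and endothelial genes. The genes that did not pass the filter on low counts were Kdr, Cldn5 and Emcn for endothelium and Ptprc, Adgre1 and Itgam for macrophages. For striated muscle they were Myog, Myf5, Myh6, Myh7 and Actn2. The other genes of these lists passed it, among them Pecam1, Cdh5, Cd68, Csf1r and Myod1. Higher and lower calls in RBPMS, RBFOX2 and QKI knockdown were 3 and 1, 0 and 2, and 3 and 1 of 5 endothelial genes tested, 2 and 0, 3 and 0, and 2 and 0 of 5 macrophage genes, and 1 and 1, 1 and 0, and 1 and 1 of 4 striated muscle genes. The chondro-osteogenic list summed to 2716 to 3053 CPM in control, nearly all from the aggrecan gene Acan, with 2 higher and 1 lower of 5 tested in RBPMS and in RBFOX2 knockdown and 0 and 3 in QKI knockdown, and to 1411 to 1864, 1635 to 1728 and 1017 to 1170.00 CPM in RBPMS, RBFOX2 and QKI knockdown. These sums moved with the groups, and their part in the results was not tested. Of all genes tested, 30.4% were called higher and 29.0% lower in RBPMS knockdown. These shares were 30.1% and 30.1% in RBFOX2 knockdown, and 32.9% and 34.0% in QKI knockdown. In bulk RNA, fewer cells of one state and less RNA per cell cannot be told apart.

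The 10 factors did not move together. In RBPMS knockdown Klf4 was higher, and Mef2c and Srf were the members that fell furthest. In RBFOX2 knockdown Srf fell more than any other member. In QKI knockdown Myocd and Elk1 were higher, and Mef2a, Klf4, Klf5, Srf, Mef2c, Gata6 and Mrtfa lower. The same 3 control libraries stand in all 3 comparisons. In RBPMS knockdown 8 of the 10 were called, against 59.4% of all genes tested, 2 of them higher (30.4% of all genes) and 6 lower (29.0% of all genes). In RBFOX2 knockdown 5 were called (60.3% of all genes), 1 higher (30.1% of all genes) and 4 lower (30.1%). In QKI knockdown 9 were called (66.9% of all genes), 2 higher (32.9%) and 7 lower (34.0%). With a fold change above 2 also required, 1 member was left in RBPMS knockdown (Klf4, against 9.66% of all genes), 1 in RBFOX2 knockdown (Srf, 11.7%) and 3 in QKI knockdown (Klf4, Klf5 and Mef2a, 17.5%).

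**Figure D1:**
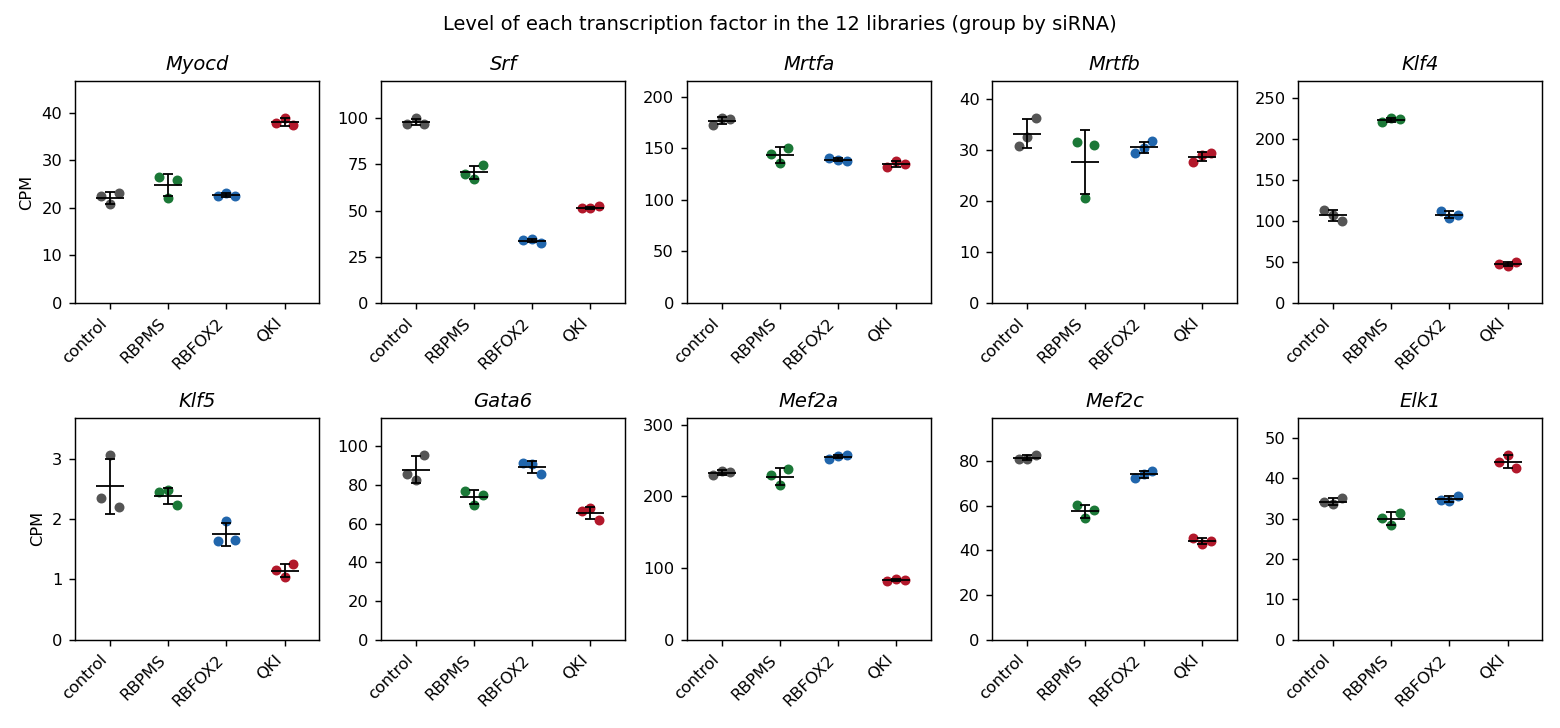
Level of each of the 10 transcription factors in CPM (vertical axes, linear and starting at 0) in each library of the control group and the 3 knockdown groups (horizontal axes). Points are libraries, the horizontal dash is the group mean and the bar its SD over 3 libraries. Srf lies below control in every knockdown library, Klf4 is highest in RBPMS knockdown and lowest in QKI knockdown, Mef2a is low in QKI knockdown only, and Myocd is high in QKI knockdown only.

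The member libraries did not overlap with the control libraries for 6 of 10 genes in RBPMS knockdown (61.7% of all genes tested), 5 of 10 in RBFOX2 knockdown (68.6%) and 10 of 10 in QKI knockdown (72.3%). The median log2 fold change of the members was -0.22 in RBPMS knockdown, -0.055 in RBFOX2 knockdown and -0.66 in QKI knockdown, where the median over all genes tested was 0.0085, 0.015 and 0.007. The median size of the change, without its sign, was 0.26, 0.13 and 0.84 for the members, against 0.33, 0.33 and 0.42 for all genes. The share of members called was above that of all genes in RBPMS and QKI knockdown and below it in RBFOX2 knockdown. All genes tested include genes with lower counts than the members. Of the 12237 genes averaging at least 200 counts, 9230, 9140 and 9813 were called in RBPMS, RBFOX2 and QKI knockdown. The members called under that filter were 8, 5 and 9 of 10. In RBPMS knockdown, 6 members were called in the fit of its 6 libraries alone, and 6 without control replicate 2. Whether members were called more often than genes of similar depth was not tested. The median size of the change was above that of all genes in QKI knockdown alone.

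Srf RNA was lower in every knockdown, and protein was not measured for any member. The control libraries held 97.0, 100.01 and 97.0 CPM of Srf, the RBPMS knockdown libraries 69.9, 67.2 and 74.6 CPM, the RBFOX2 knockdown libraries 34.2, 34.4 and 32.7 CPM and the QKI knockdown libraries 51.2, 51.2 and 52.3 CPM. No 2 groups overlapped, and the order was control, RBPMS knockdown, QKI knockdown and RBFOX2 knockdown, with every neighbouring pair past the test. The mean fell from 98.0 ± 1.74 CPM (SD, n = 3) to 70.6 ± 3.73, 51.6 ± 0.599 and 33.8 ± 0.946 CPM. As log2 fold changes these were -0.47 (SE 0.039, adjusted p = 1.42e-08), -0.93 (SE 0.040, adjusted p = 1.17e-12) and -1.54 (SE 0.040, adjusted p = 4.24e-15). Srf was thus 65.5% lower in RBFOX2 knockdown than in control, and 101 of the 10707 genes averaging 5 CPM or more had a lower log2 fold change there. Without RBPMS knockdown replicate 2 the change in RBPMS knockdown was -0.44.

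The promoter of Srf carried the motif that SRF binds. RefSeq promoter windows of GRCr8, each 250 bases before to 50 after an annotated start, matched 8 of the 10 members by symbol, all but Myocd and Mef2c. The perfect CArG box, which reads the same on both strands, was in 1.64% of the 33469 windows and, among the members, in the Srf window alone, where it occurred at 2 places starting 81 and 61 bases before the start. The consensus MEF2 site, likewise symmetric and not overlapping any CArG box in the lists searched, was in 3.29% of the windows and, among the members, in the Mef2a window alone, 40 bases before the start. The Srf window lies at chr9:21923826-21924125 on the + strand and the Mef2a window at chr1:130392113-130392412 on the - strand of GRCr8, and both are printed 5′ to 3′ with the CArG boxes or the MEF2 site in capitals, because Srf in RBFOX2 knockdown and Mef2a in QKI knockdown were the largest falls of any member.
Srf: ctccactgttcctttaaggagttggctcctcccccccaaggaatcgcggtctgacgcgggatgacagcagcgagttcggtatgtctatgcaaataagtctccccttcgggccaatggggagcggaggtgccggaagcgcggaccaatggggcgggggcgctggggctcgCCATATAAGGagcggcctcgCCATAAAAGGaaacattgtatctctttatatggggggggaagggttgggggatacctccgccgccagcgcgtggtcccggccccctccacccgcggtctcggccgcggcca
Mef2a: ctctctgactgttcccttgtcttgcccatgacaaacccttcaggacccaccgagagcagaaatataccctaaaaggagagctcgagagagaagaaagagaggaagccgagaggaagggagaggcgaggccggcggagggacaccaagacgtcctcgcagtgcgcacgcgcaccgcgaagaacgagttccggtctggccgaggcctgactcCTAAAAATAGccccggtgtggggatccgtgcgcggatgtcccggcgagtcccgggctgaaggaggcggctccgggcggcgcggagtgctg
A match is a string of letters and not a shown binding site, and no match says only that the motif is not in that window. The files were made on another build, mRatBN7.2.

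Transcripts of Myocd, which encodes the coactivator of SRF found in smooth and cardiac muscle, did not fall with Srf. Myocd stood at 22.5, 20.8 and 23.2 CPM in the control libraries, 26.4, 22.1 and 25.9 CPM after RBPMS knockdown, 22.6, 23.1 and 22.5 CPM after RBFOX2 knockdown and 37.9, 38.9 and 37.4 CPM after QKI knockdown. The 3 QKI knockdown libraries lay above all others, and the other 3 groups overlapped one another. The log2 fold change in QKI knockdown was 0.78 (SE 0.058, adjusted p = 2.01e-09), a 1.72-fold rise from 22.1 ± 1.25 to 38.1 ± 0.783 CPM, and 607 of 10707 genes had a higher value. In RBPMS knockdown the log2 fold change of 0.16 passed the test at an adjusted p of 0.0249 but replicate 2, at 22.1 CPM, lay inside the control range, and the call was lost under 4 of the other settings. It was also lost without control replicate 2 (0.12) or RBPMS knockdown replicate 1 (0.11) or 3 (0.13). The value without replicate 2 was 0.24 (adjusted p = 1.53e-04). In RBFOX2 knockdown the log2 fold change was 0.038 (SE 0.059, adjusted p = 0.602). Counts per gene sum all isoforms of Myocd, and its splicing was not analysed here.

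The MRTFs are the broadly expressed relatives of myocardin that carry the actin signal to SRF. Mrtfa was at 173, 179.6 and 178 CPM in control, 145, 136 and 150.4 CPM after RBPMS knockdown, 141, 139 and 138 CPM after RBFOX2 knockdown and 132, 138 and 135 CPM after QKI knockdown. Every knockdown library lay below every control library. The log2 fold changes were -0.30, -0.35 and -0.39, each with an SE of 0.037 and an adjusted p of at most 1.97e-06, so that Mrtfa fell by 18.9% to 23.7% in the 3 knockdowns. Between knockdowns, the differences from RBPMS to RBFOX2 (0.044, adjusted p = 0.326) and from RBFOX2 to QKI (0.044, adjusted p = 0.303) did not pass, and the one from RBPMS to QKI was at the threshold (0.089, adjusted p = 0.0483) and was lost under each of the 10 other settings, with the sign turned under library totals (-0.041). It was also lost without RBPMS knockdown replicate 1 (0.084) or 3 (0.056), or any single QKI knockdown replicate (0.071, 0.098 and 0.086). Without RBPMS knockdown replicate 2 the difference between RBPMS and RBFOX2 knockdown was 0.084 and passed (adjusted p = 0.0190).

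Mrtfb was at 30.9, 32.6 and 36.3 CPM in control, 31.6, 20.5 and 30.9 CPM after RBPMS knockdown, 29.5, 30.4 and 31.8 CPM after RBFOX2 knockdown and 27.8, 29.0 and 29.4 CPM after QKI knockdown. The low value of RBPMS knockdown came from replicate 2, and the other libraries of that group lay within the control range or at its edge. The log2 fold change in RBPMS knockdown, -0.27 (SE 0.11, adjusted p = 0.0446), became -0.091 (adjusted p = 0.163) without it. The call was also lost without control replicate 2 (-0.28, adjusted p = 0.0679) or 3 (-0.20, adjusted p = 0.166). In RBFOX2 and QKI knockdown it was -0.12 (adjusted p = 0.347) and -0.21 (adjusted p = 0.0988), although in QKI knockdown all libraries lay below control. In fits of the 6 libraries of each comparison alone, both passed (-0.12, adjusted p = 0.0472, in RBFOX2 knockdown and -0.22, adjusted p = 0.00210, in QKI knockdown). With no filter on low counts, the value in QKI knockdown passed as well (-0.23, adjusted p = 9.03e-04). The SE of Mrtfb, 0.11, was larger than that of the other members except Klf5.

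Klf4, whose product represses contractile genes, moved in opposite directions in RBPMS and QKI knockdown. The control libraries held 113, 107 and 99.4 CPM of Klf4, RBPMS knockdown 220.1, 225 and 224 CPM, RBFOX2 knockdown 112, 103 and 107 CPM and QKI knockdown 47.3, 45.5 and 49.6 CPM. The RBPMS libraries lay above all others and the QKI libraries below all others, whereas control and RBFOX2 knockdown overlapped. The rise in RBPMS knockdown was 2.09-fold (log2 fold change 1.07, SE 0.046, adjusted p = 3.85e-12), with 239 of 10707 genes higher, and was 1.06 without replicate 2. The fall in QKI knockdown was 2.24-fold (log2 fold change -1.17, SE 0.047, adjusted p = 4.97e-13). In RBFOX2 knockdown the log2 fold change was 0.014 with an SE of 0.046 (adjusted p = 0.810). The direct difference between RBPMS and QKI knockdown came to 2.23 on the log2 scale, a 4.70-fold higher level in RBPMS knockdown (adjusted p = 3.09e-16), the largest difference of any member in the 6 comparisons.

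Klf5, whose product promotes smooth muscle proliferation, was measured at 120 to 457 counts per library and had the largest SE of the members. Its levels were 2.35, 3.07 and 2.20 CPM in control, 2.44, 2.48 and 2.24 CPM after RBPMS knockdown, 1.63, 1.96 and 1.65 CPM after RBFOX2 knockdown and 1.15, 1.04 and 1.25 CPM after QKI knockdown. Control replicate 2 was the highest of the 12 libraries, and RBFOX2 and QKI knockdown lay below control and did not overlap with it or with each other. The log2 fold change was -0.54 (SE 0.13, adjusted p = 0.00176) in RBFOX2 knockdown and -1.15 (SE 0.14, adjusted p = 9.92e-07) in QKI knockdown. In RBPMS knockdown it was -0.091 (SE 0.13, adjusted p = 0.570), so the rise of Klf4 there was not accompanied by a detected change of Klf5, and the sign of this small value turned without control replicate 2 (0.069).

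Elk1, which encodes a ternary complex factor that competes with myocardin for SRF, was higher in QKI knockdown and lower in RBPMS knockdown. Elk1 stood at 34.0, 33.5 and 35.2 CPM in control, 30.3, 28.4 and 31.5 CPM after RBPMS knockdown, 34.6, 34.3 and 35.6 CPM after RBFOX2 knockdown and 44.0, 45.9 and 42.7 CPM after QKI knockdown. The QKI libraries were above and the RBPMS libraries below all control libraries, and RBFOX2 knockdown overlapped with control. The log2 fold changes were 0.37 (SE 0.043, adjusted p = 8.45e-07), -0.19 (SE 0.044, adjusted p = 0.00122) and 0.024 (SE 0.043, adjusted p = 0.665).

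Mef2a and Mef2c, which encode DNA-binding factors of muscle genes, fell most in QKI knockdown. Mef2a was at 229, 236 and 234 CPM in control, 229, 215 and 238 CPM after RBPMS knockdown, 253, 256 and 258 CPM after RBFOX2 knockdown and 81.5, 84.5 and 83.7 CPM after QKI knockdown. The QKI libraries lay far below the rest, RBFOX2 knockdown lay above control without overlap, and RBPMS knockdown overlapped with control. In QKI knockdown the log2 fold change was -1.49 (SE 0.037, adjusted p = 1.07e-15), a 2.80-fold fall, with 343 of 10707 genes lower. The rise in RBFOX2 knockdown was 0.13 (SE 0.036, adjusted p = 0.00421) and the value in RBPMS knockdown -0.034 (SE 0.036, adjusted p = 0.432), which was 0.0024 without replicate 2.

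Mef2c fell in all 3 knockdowns. Its libraries held 81.1, 80.8 and 82.9 CPM in control, 60.3, 54.3 and 57.9 CPM after RBPMS knockdown, 72.5, 74.0 and 75.7 CPM after RBFOX2 knockdown and 45.4, 42.8 and 44.1 CPM after QKI knockdown. No 2 groups overlapped, and the order from high to low was control, RBFOX2, RBPMS and QKI knockdown, each step past the test. The log2 fold changes were -0.14 (SE 0.040, adjusted p = 0.00582), -0.51 (SE 0.040, adjusted p = 8.35e-09) and -0.89 (SE 0.040, adjusted p = 2.63e-12). The call in RBFOX2 knockdown was lost when libraries were scaled by their totals alone.

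Gata6, which encodes a zinc-finger factor of the vascular wall, fell in RBPMS and QKI knockdown. Gata6 was at 85.6, 82.5 and 95.7 CPM in control, 76.7, 69.7 and 74.6 CPM after RBPMS knockdown, 91.7, 91.0 and 86.0 CPM after RBFOX2 knockdown and 66.7, 68.0 and 62.2 CPM after QKI knockdown. Both groups that fell lay below control without overlap, and RBFOX2 knockdown lay inside the control range. The log2 fold changes were -0.26 (SE 0.054, adjusted p = 5.31e-04), -0.42 (SE 0.054, adjusted p = 2.03e-06) and 0.026 (SE 0.053, adjusted p = 0.697) in RBPMS, QKI and RBFOX2 knockdown.

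**Figure D2:**
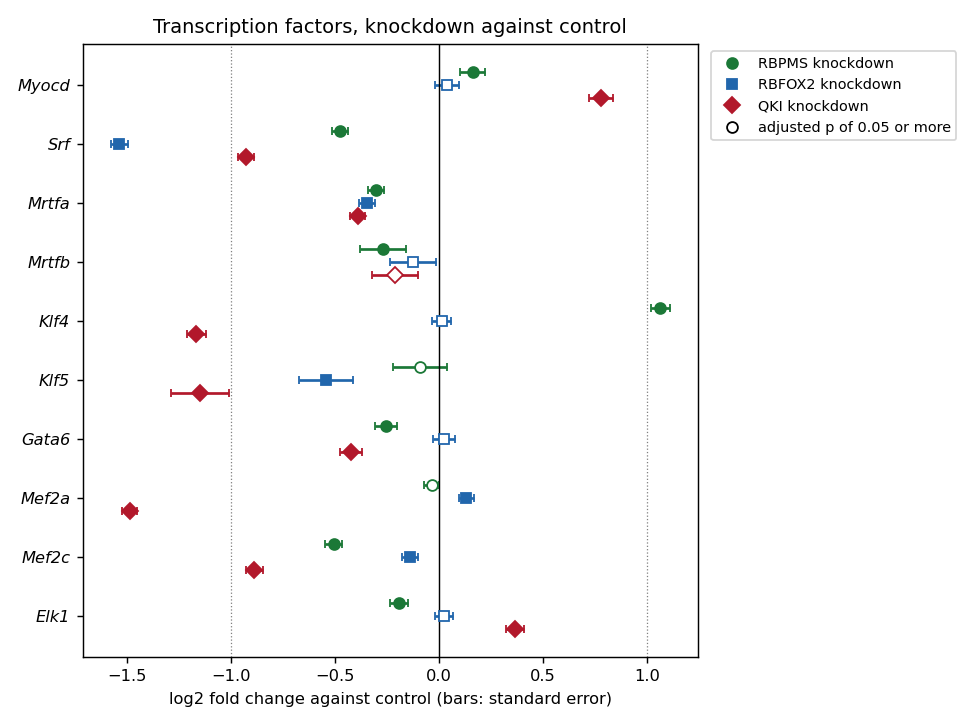
Log2 fold change of each factor against control (horizontal axis) with its standard error, for RBPMS (circles), RBFOX2 (squares) and QKI knockdown (diamonds). Filled symbols passed an adjusted p under 0.05, open symbols did not, and dotted lines mark log2 fold changes of -1 and 1. Srf in RBFOX2 knockdown, Klf4 in RBPMS and QKI knockdown, and Klf5 and Mef2a in QKI knockdown lie beyond the dotted lines.

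The knockdowns were also compared with each other, which asks whether a factor responded to them differently. Between RBPMS and RBFOX2 knockdown 7 of 10 members differed (56.7% of all genes tested), 2 of them by more than 2-fold (7.52% of all genes), namely Srf, 2.09-fold higher in RBPMS knockdown, and Klf4, 2.07-fold higher. Between RBPMS and QKI knockdown 9 differed (61.0% of all genes), 3 of them by more than 2-fold (12.2%), with Klf4, Mef2a and Klf5 higher in RBPMS knockdown by 2.23, 1.45 and 1.06 on the log2 scale. Between RBFOX2 and QKI knockdown 8 differed (68.5% of all genes), 2 of them by more than 2-fold (18.4%), Mef2a by 1.62 and Klf4 by 1.18, both higher in RBFOX2 knockdown. Myocd was lower in RBPMS and RBFOX2 than in QKI knockdown by 0.62 and 0.74 on the log2 scale (adjusted p = 6.23e-08 and 3.87e-09), and Elk1 by 0.56 and 0.34 (adjusted p = 6.48e-09 and 1.82e-06). Mrtfb passed in none of these 3 comparisons, with log2 differences of -0.15, -0.057 and 0.088 and SEs of 0.11. With no filter on low counts, Mrtfb passed between RBPMS and RBFOX2 knockdown (-0.15, adjusted p = 0.0423). Without RBPMS knockdown replicate 2 that difference was 0.034 and did not pass. Gata6 was lower in RBPMS than in RBFOX2 knockdown by 0.28 (adjusted p = 2.44e-04) and lower in QKI than in RBFOX2 knockdown by 0.45 (adjusted p = 9.42e-07), whereas its difference between RBPMS and QKI knockdown, 0.17 (adjusted p = 0.0130), was lost under 4 other settings and without RBPMS knockdown replicate 1 (0.14) or QKI knockdown replicate 3 (0.13). Mef2c differed in every pair, by 0.37, 0.38 and 0.75, with QKI knockdown lowest. Myocd and the MRTFs were the members that did not differ between RBPMS and RBFOX2 knockdown, with Myocd at 0.12 (adjusted p = 0.0810), and at 0.20 (adjusted p = 8.71e-04) without RBPMS knockdown replicate 2.

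**Figure D3:**
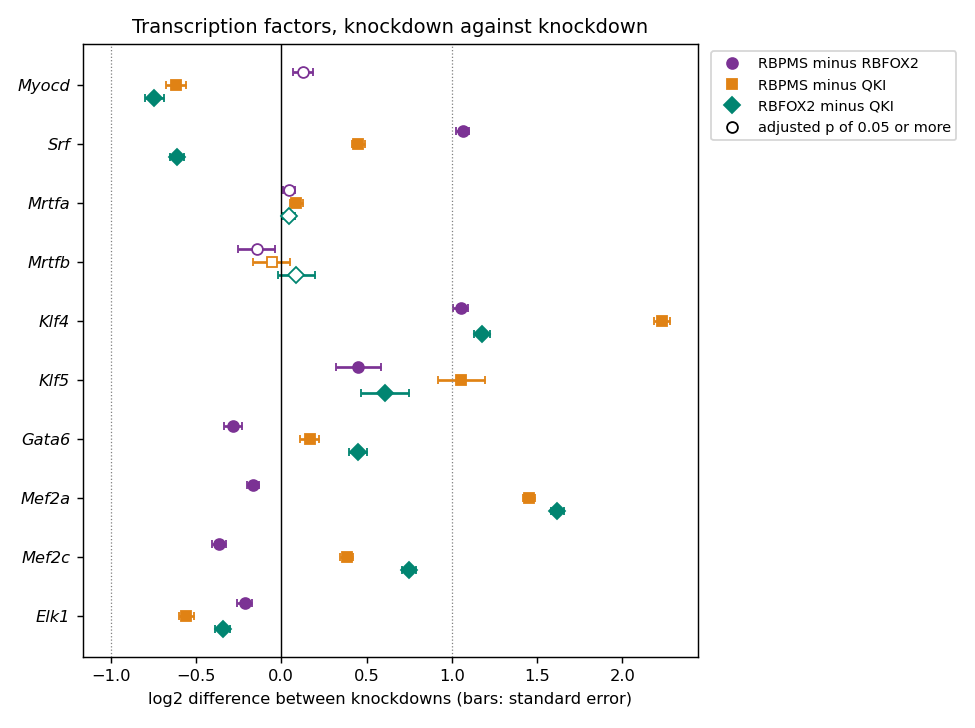
Log2 difference of each factor between pairs of knockdowns (horizontal axis, first named minus second named) with its standard error, with filled symbols for an adjusted p under 0.05. Klf4 shows the widest difference, 2.23 between RBPMS and QKI knockdown, and Srf and Elk1 are the members that QKI knockdown holds above RBFOX2 knockdown along with Myocd.

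The pairs of members with the strongest correlations of log2 level over the 12 libraries were picked. Klf4 ran opposite to Elk1 (Pearson r = -0.97), Myocd ran opposite to Mef2a (r = -0.96), and Gata6 followed Mef2c (r = 0.93). Other pairs of members were weaker, down to -0.015 for Srf and Gata6. These are descriptions over 12 points that share 4 groups and 1 control, and the spread comes mostly from the groups. Among 10707 genes averaging 5 CPM or more, those with the pattern most like each member were Gnai1 and Sp140 for Myocd (r = 0.986 and 0.982), Rbm18 and Fam53c for Srf (both 0.997), Socs7 and Klhl42 for Mrtfa (0.989 and 0.987), Hcfc1 and Zfc3h1 for Mrtfb (0.962 and 0.959), and Bcat1 and Hbs1l for Klf4 (0.996 and 0.993). For Klf5 they were Nr4a2 and Aagab (both 0.972), for Gata6 Vldlr and Sema3f (0.985 and 0.979), for Mef2a Prrg1 and Rock2 (both 0.998), for Mef2c Tbc1d1 and Cttnbp2 (0.995 and 0.994), and for Elk1 Med25 and Efcab14 (0.987 and 0.986).

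Relatives of the members and other factors of smooth muscle state were read as a list of 29 genes, of which 28 were tested and Tcf21 was not. Values given for genes of the lists below are log2 fold changes against control. For this list and those below, the shares of all genes called higher and lower were 30.4% and 29.0% in RBPMS knockdown. They were 30.1% and 30.1% in RBFOX2 knockdown, and 32.9% and 34.0% in QKI knockdown. In RBPMS knockdown 10 rose and 12 fell, in RBFOX2 knockdown 12 rose and 10 fell, and in QKI knockdown 4 rose and 18 fell, with list medians of -0.040, 0.051 and -0.39 on the log2 scale beside medians over all genes of 0.0085, 0.015 and 0.007. The NFATs, calcium-responsive factors, were among the largest changes in RBPMS and RBFOX2 knockdown: Nfatc4 was lower in both, with log2 fold changes of -0.86 and -1.20, Nfatc1 rose by 0.67 and 1.46, and Nfatc3 was higher in RBPMS knockdown (0.29) and lower in RBFOX2 knockdown (-1.43). Twist1 and Zeb1, factors of mesenchymal state, rose by 0.60 and 0.56 in RBPMS knockdown and by 0.79 and 0.68 in RBFOX2 knockdown. In QKI knockdown Zeb1 fell by 0.26, and Twist1, at 0.058, did not pass. The largest changes in QKI knockdown among list genes averaging 5 CPM or more were those of the homeobox gene Prrx1 (-1.83), Klf9 (-1.48), Hopx, whose product restrains SRF (-1.44), and Elk3 (0.93).

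Close relatives of the members, named after their values were seen, did not follow them in every case. Elk3, a ternary complex factor like Elk1, rose in all 3 knockdowns, by 0.49, 0.39 and 0.93 in RBPMS, RBFOX2 and QKI knockdown, whereas Elk4 rose by 0.40 in RBPMS knockdown and fell by 0.59 and 0.47 in the others. Mef2d, a relative of Mef2a, fell by 0.19 and 0.38 after RBPMS and RBFOX2 knockdown but did not pass in QKI knockdown, where Mef2a and Mef2c fell. Klf2, a relative of Klf4 best known from endothelium, fell in all 3, with log2 fold changes of -0.26, -0.89 and -0.68. Klf6 rose by 0.24 in RBPMS knockdown and fell by 0.65 in QKI knockdown, the same signs as Klf4. It also rose by 0.11 in RBFOX2 knockdown (adjusted p = 0.0180), where Klf4 did not pass. Gata4 fell by 0.48 in RBPMS knockdown and rose by 0.28 in QKI knockdown, where Gata6 fell.

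A list of 13 genes, partners of SRF and the MRTFs together with Lmod1, was read in the same way. In RBPMS knockdown 3 were higher and 8 lower, in RBFOX2 knockdown 4 and 7, and in QKI knockdown 5 and 8. List medians were -0.24, -0.30 and -0.18. Lower calls exceeded the shares of all genes in each knockdown, and higher calls were near or below them. Fhl1, a LIM-domain protein of muscle, fell by 1.48, 1.82 and 1.90 in RBPMS, RBFOX2 and QKI knockdown. Lmod1, the smooth muscle leiomodin that nucleates actin filaments, also belongs to the smooth muscle markers summed above. It fell by 1.19, 0.77 and 2.40. Hdac4, a deacetylase that binds MEF2 proteins, fell by 0.61, 0.86 and 1.23, so that it fell alongside Mef2a in QKI knockdown. Csrp1, a LIM protein that bridges SRF and GATA factors, fell by 0.33, 0.76 and 0.34. Fhl3 rose by 0.83, 0.48 and 1.24.

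Contractile genes known as targets of SRF and myocardin, 20 genes, fell in the majority in each knockdown: 2 were higher and 15 lower in RBPMS knockdown, and 3 were higher and 15 lower in both RBFOX2 and QKI knockdown, with list medians of -0.43, -0.70 and -0.75. Several of these genes are ones that the study uses as markers, so the direction is not independent evidence. Acta2, smooth muscle alpha-actin, fell by 1.65, 2.11 and 1.16, and Nexn, an actin-binding protein, fell by 1.26, 1.33 and 1.61. Filip1l fell by 1.48 and 1.67 in RBPMS and RBFOX2 knockdown, and Actg2 fell by 1.27 and 1.86. In QKI knockdown Synpo2 and the caldesmon gene Cald1 fell by 1.62 and 1.19. Against this direction, Myh11, smooth muscle myosin heavy chain, rose by 0.34, 1.05 and 0.19 in RBPMS, RBFOX2 and QKI knockdown, the last of these lost when any one of 5 libraries was left out, and Des rose by 0.65 and 0.98 in RBPMS and QKI knockdown. Both were chosen after their values were seen. In QKI knockdown Acta2 fell while Myocd rose.

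The immediate-early genes, which include genes that SRF serves with ELK1 and its relatives, split in RBPMS knockdown, with 8 of 15 higher and 6 lower. They were more often lower in RBFOX2 knockdown (3 higher, 8 lower) and QKI knockdown (4 higher, 9 lower). Which of them SRF drives in these cells was not tested. List medians were 0.18, -0.11 and -0.23. In RBPMS knockdown Ier3, Atf3 and Fosb rose by 1.41, 1.35 and 1.23, and Egr1 fell by 1.05. RBFOX2 knockdown lowered Dusp1 (-1.20), Nr4a1 (-1.09), Egr1 (-1.04) and Fos (-1.03). In QKI knockdown Nr4a1, Fos and Mcl1 fell by 1.19, 1.04 and 0.87, and Ier3 rose by 0.92. Cells were harvested with no growth stimulus named.

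**Figure D4:**
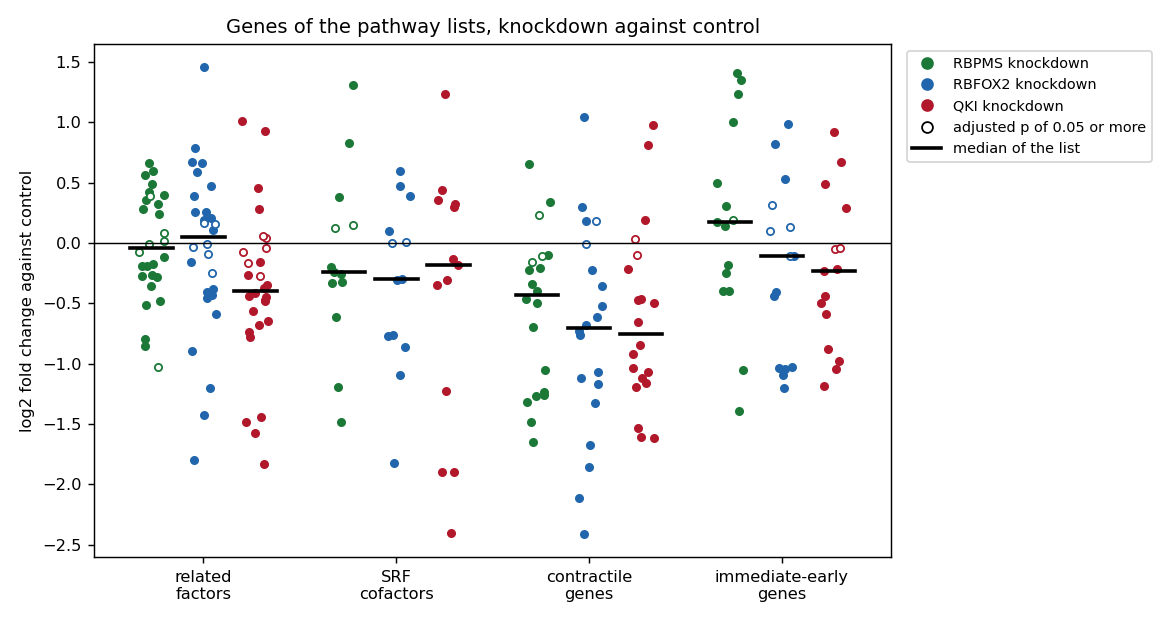
Log2 fold change against control (vertical axis) of each tested gene of the 4 lists (horizontal axis), in RBPMS, RBFOX2 and QKI knockdown. Filled points passed an adjusted p under 0.05, open points did not, and the black dash is the median of the list. Contractile genes have the lowest medians, -0.43, -0.70 and -0.75, and each list holds genes on both sides of 0.

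Perfect CArG boxes in the promoter windows of these lists were found in Klf6 among the 19 related factors with a window, in Fhl1 and Fhl2 among 11 partners of SRF, in Egr1 and Egr2 among 10 immediate-early genes, and in none of 17 contractile genes with a window. The MEF2 site was found in Prrx1, Fhl2 and Hdac5 and in no window of the other 2 lists. Stretches of 30 bases around the CArG boxes are printed 5′ to 3′ in GRCr8 with the box in capitals, since they show how the sites in Srf compare with those of genes that moved. For Egr1 the box further from the start is shown. Fhl1 had 2 windows, and its box was in window 1 only.
Fhl1 (chrX:139638384-139638413, + strand): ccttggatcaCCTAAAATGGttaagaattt
Fhl2 window 1 (chr9:52954616-52954645, - strand): catttagagaCCAAAAATGGcttgcaggag
Fhl2 window 2 (chr9:52923365-52923394, - strand): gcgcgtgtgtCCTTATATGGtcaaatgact
Egr1 (chr18:26736963-26736992, + strand): gtcggtccttCCATATTAGGgcttcctgct
Egr2 (chr20:21054505-21054534, - strand): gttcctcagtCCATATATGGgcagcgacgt
Klf6 (chr17:69458660-69458689, - strand): aataggaaggCCTTTAATGGagaggctcgg
The genes with a box did not share a direction. With Srf and Fhl1, Egr1 was lower in all 3 knockdowns, at -0.50 in QKI knockdown. Egr2 was lower in RBPMS (-0.39) and QKI knockdown (-0.59). Fhl2 was higher in RBPMS and QKI knockdown (0.38 and 0.36), and Klf6 rose in RBPMS and RBFOX2 knockdown and fell in QKI knockdown. These genes were picked for the motif after the values were seen.

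**Figure D5:**
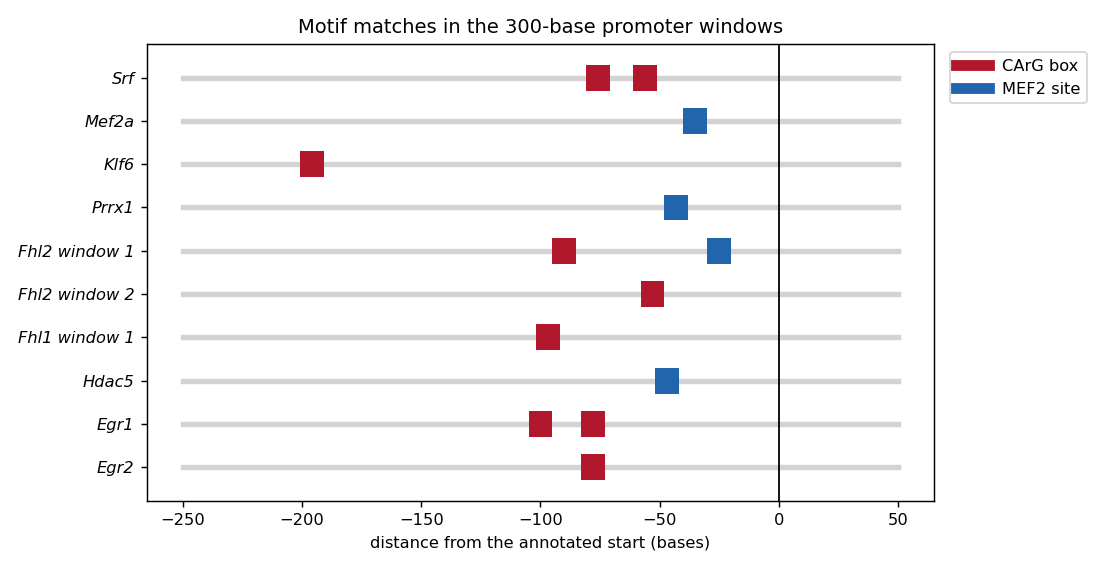
Positions of perfect CArG boxes and consensus MEF2 sites (bars of 10 bases) relative to the annotated start at 0 (horizontal axis, bases) in the promoter windows of the listed genes that hold a match. Grey lines are the windows of 300 bases. The CArG boxes of Srf begin 81 and 61 bases before the start, the MEF2 site of Mef2a 40 bases before, and those of the other genes between 201 and 30 bases before.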

How the data were processed

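Raw gene counts deposited by the authors were analysed. Per the study and the labels, poly(A) libraries from a strand-specific kit were aligned with STAR to mRatBN7.2 and counted with featureCounts over RefSeq genes. The STAR version differs between these sources, totals exceed the read depth that the study gives after subsampling, and 68.1% of counts from 1 to 19 were even. Whether counting used strand, and how reads of overlapping or paralogous genes were treated, is not stated. The normalised signal deposited by the authors, made by noise filtering and quantile normalisation, served as an alternative on the log2 scale with pseudocounts of 1 and 8.

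Genes kept by filterByExpr were fitted in one quasi-likelihood model over the 12 libraries in edgeR 4.0.16 (R 4.3.3) with TMM scaling, and the SE is the log2 fold change divided by the root of its F statistic. The labels number 3 replicates a group without naming separate cultures, so p-values measure the spread between these samples. An exact permutation test of 3 against 3 cannot go below 0.1 and was not used. Alternatives were RLE and library-total scaling, 2 other count filters, halved counts, a replicate block, fits on 6 libraries, DESeq2 1.42.0, limma 3.58.1 on the normalised table, a fold threshold, and leaving out each library. Same-numbered libraries did not deviate together, so the numbers were not taken as pairs.

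Genes named were the members, the 3 siRNA targets, up to 4 genes of each list with the largest called change and a mean of at least 5 CPM, and the 2 most correlated genes of each member. One of the lists is not reported here. The members and lists were chosen with earlier results of these data known. Scripts were tested on simulated data.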

Additional observations from a re-analysis of the deposited data

How the results depend on the processing

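Requiring a log2 fold change beyond 1 beside the adjusted p moved the number of members called from 8 to 1 in RBPMS knockdown, from 5 to 1 in RBFOX2 knockdown, from 9 to 3 in QKI knockdown, and between knockdowns from 7 to 2 (RBPMS against RBFOX2), 9 to 3 (RBPMS against QKI) and 8 to 2 (RBFOX2 against QKI). Every other setting kept these 6 counts within 1.5 times. Over the members, 906 of 960 values under the alternatives kept their direction and their side of the threshold, 33 lost the call, 6 gained it and 15 turned direction. Srf in RBFOX2 knockdown, Klf4 in RBPMS and QKI knockdown, and Klf5 and Mef2a in QKI knockdown kept their call under every setting run, and the rise of Myocd in QKI knockdown under each but the fold threshold.

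For Mrtfa, the difference between RBPMS and RBFOX2 knockdown was -0.054 with library totals and -0.047 with the normalised table at either pseudocount, and that between RBPMS and QKI knockdown was -0.041 with library totals. The median of all genes was -0.11 and -0.12 with library totals in these comparisons, beside -0.0096 and 0.010 with TMM. Klf5 in RBPMS knockdown was 0.011 and 0.010 with the normalised table at pseudocounts 1 and 8. When single libraries were left out, the log2 fold change in RBFOX2 knockdown ran from -0.0087 to 0.070 for Myocd, from -0.035 to 0.054 for Klf4, from -0.019 to 0.089 for Gata6 and from -0.00049 to 0.042 for Elk1, and in RBPMS knockdown from -0.19 to 0.069 for Klf5 and from -0.068 to 0.0024 for Mef2a. Without RBPMS knockdown replicate 2, the Mrtfb differences from RBFOX2 and QKI knockdown turned to 0.034 and 0.12, within ranges of -0.25 to 0.034 and -0.16 to 0.12.

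With a replicate block the 6 counts were 8, 5, 9, 7, 8 and 8, and the block ended 1 call, Mrtfa between RBPMS and QKI knockdown (0.089, adjusted p = 0.0628). Calls near the threshold also ended for Myocd in RBPMS knockdown under library totals (0.12, adjusted p = 0.101), the 6-library fit and the normalised table, for Mrtfb in RBPMS knockdown under DESeq2 (-0.27, adjusted p = 0.0908), and for Mef2c in RBFOX2 knockdown under library totals (-0.085, adjusted p = 0.0828). The causes were not tested. Klf5 had the lowest depth of the members, 120 to 457 counts a library.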
